A study of Mus musculus with 51 samples.

Results

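H3K9me3, trimethylation of lysine 9 on histone H3, was mapped by ChIP-seq in mouse MC3T3-E1 calvarial pre-osteoblasts cultured without vitamin C (VitC-) or with it (VitC+). The members described here are all regions of the 2 deposited MACS2 broad peak lists for this mark, 44832 peaks of VitC- cells and 33708 peaks of VitC+ cells. They make up 78540 of the 1972767 peaks in the 10 peak lists of the series, the others being lists of H3K27me3 and of 5-hydroxymethylcytosine (5hmC) in cells or femurs. The comparison asks where this repressive mark lies in osteogenic cells with and without VitC, how wide its domains are and which kinds of genes they cover.

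MC3T3-E1 is a cell line from C57BL/6 mouse calvaria, here at passages 7 to 10, that becomes osteoblastic under differentiation medium. Cells of both groups received 4 mM β-glycerophosphate as a source of phosphate in a medium free of VitC, and the VitC+ group also received VitC at 50 µg/ml. The sample labels give 28 days of culture, whereas the series' design text gives day 7 or day 28, the study's methods give 7 days for these assays and the peak names begin with 7d, and this conflict was not resolved. The labels list 2 samples per group, but only 1 peak list exists per group, and whether it was called on 1 culture dish or on pooled dishes cannot be told. There was therefore no replicate error, no test was made between the groups, and every difference given below is a difference between 2 peak lists. Read numbers are not part of a peak list, so the sequencing depth is unknown. The identity of the cells was not checked against marker genes because no expression values of these cells were used.

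H3K9me3 is the hallmark of constitutive heterochromatin. It is placed by methyltransferases such as SETDB1 and SUV39H1, bound by HP1 proteins and known for silencing satellite repeats, transposable elements, imprinted alleles and clusters of zinc finger genes. Many proteins with a KRAB domain and arrays of zinc fingers recruit this machinery to transposable elements, and their own gene clusters carry the mark. Demethylases of the KDM4 family remove H3K9me3 in a reaction that needs iron and α-ketoglutarate, and VitC keeps the iron of such dioxygenases reduced.

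The peaks fell into sequence types that the following stretches of the mm10 (GRCm38) genome show, all written 5′ to 3′ on the plus strand of the RefSeq assembly. The first sequences are from narrow peaks of high q value and have CG dinucleotides, the sites of cytosine methylation, in capitals. The strongest VitC- peak, at chr2:98666621-98667171 between genes, is shown for its tandem structure (chr2:98666746-98667045). Repeat copies 1, 2 and 3 show how alike such peaks can be, copies 2 and 3 being chosen because they matched copy 1: copy 1 lies between genes near Mllt3 (chr4:88055057-88055356), copy 2 in an intron of 2310069G16Rik (chr15:44791154-44791453) and copy 3 in an intron of Rcan2 (chr17:43940051-43940211). The peak with the highest fold enrichment of either list lies in an intron of 6530403H02Rik (chr3:120717214-120717513).
Strongest VitC- peak: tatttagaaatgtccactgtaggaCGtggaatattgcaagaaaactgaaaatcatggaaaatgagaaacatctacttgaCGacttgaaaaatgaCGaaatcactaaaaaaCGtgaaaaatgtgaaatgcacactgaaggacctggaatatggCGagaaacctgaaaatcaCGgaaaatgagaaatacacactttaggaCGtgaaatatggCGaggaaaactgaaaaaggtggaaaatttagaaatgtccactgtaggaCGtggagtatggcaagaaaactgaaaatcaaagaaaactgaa
Repeat copy 1: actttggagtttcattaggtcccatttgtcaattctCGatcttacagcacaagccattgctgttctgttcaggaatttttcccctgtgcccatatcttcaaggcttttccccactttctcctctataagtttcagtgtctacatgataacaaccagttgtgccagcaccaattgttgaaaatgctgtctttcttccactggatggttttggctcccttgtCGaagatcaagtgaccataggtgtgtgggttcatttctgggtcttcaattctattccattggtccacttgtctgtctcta
Repeat copy 2: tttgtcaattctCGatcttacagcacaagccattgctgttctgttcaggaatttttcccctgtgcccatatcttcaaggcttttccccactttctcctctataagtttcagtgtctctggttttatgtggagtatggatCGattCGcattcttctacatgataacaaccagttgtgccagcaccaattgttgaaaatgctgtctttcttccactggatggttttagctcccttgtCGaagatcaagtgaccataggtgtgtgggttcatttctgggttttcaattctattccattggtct
Repeat copy 3: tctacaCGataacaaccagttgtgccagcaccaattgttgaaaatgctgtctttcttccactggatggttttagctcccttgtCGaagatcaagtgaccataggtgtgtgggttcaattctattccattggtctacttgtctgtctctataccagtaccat
Highest-fold VitC+ peak: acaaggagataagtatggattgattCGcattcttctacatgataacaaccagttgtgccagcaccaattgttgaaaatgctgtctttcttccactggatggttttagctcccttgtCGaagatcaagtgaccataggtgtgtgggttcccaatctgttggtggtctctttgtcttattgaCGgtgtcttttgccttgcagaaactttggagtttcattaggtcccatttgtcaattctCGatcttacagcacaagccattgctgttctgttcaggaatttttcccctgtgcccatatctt

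The next sequences are from exons of zinc finger genes under peaks, with the codons for the TGEKP linker, the short amino acid motif that joins neighbouring zinc fingers, in capitals. Zinc finger exon 1 lies in Zfp433 (chr10:81720188-81720487) inside the widest VitC- peak and holds 4 linkers. Zinc finger exon 2 lies in Zfp982 (chr4:147513789-147514088) in a VitC+ peak 8004 bp wide and under no VitC- peak.
Zinc finger exon 1: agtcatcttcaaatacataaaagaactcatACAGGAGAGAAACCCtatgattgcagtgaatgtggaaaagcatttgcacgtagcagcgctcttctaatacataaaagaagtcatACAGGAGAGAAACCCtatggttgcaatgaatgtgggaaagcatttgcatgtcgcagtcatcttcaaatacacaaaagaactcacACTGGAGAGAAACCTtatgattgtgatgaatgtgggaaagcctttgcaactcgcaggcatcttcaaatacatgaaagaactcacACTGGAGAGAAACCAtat
Zinc finger exon 2: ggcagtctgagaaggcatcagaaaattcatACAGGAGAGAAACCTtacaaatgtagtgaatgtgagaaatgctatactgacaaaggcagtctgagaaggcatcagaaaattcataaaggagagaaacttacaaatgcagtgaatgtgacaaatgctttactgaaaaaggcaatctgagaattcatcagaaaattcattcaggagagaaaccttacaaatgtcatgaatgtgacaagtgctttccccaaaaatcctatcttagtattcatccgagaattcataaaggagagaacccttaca

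The last stretch, again with CG in capitals, is from an intron of Runx2 (chr17:44505351-44505650), the master transcription factor of osteoblasts, under the strongest VitC- peak of this gene that no VitC+ peak overlapped.
Runx2 intron peak: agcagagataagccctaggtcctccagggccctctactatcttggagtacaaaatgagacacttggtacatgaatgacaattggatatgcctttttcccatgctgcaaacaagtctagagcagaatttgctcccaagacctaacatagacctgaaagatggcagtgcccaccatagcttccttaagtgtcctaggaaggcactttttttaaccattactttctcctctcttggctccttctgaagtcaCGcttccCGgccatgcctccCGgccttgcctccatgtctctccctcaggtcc

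The size of the H3K9me3 landscape depended on the q threshold. As deposited, peaks covered 66.8 Mb in VitC- and 44.0 Mb in VitC+ cells, 0.658 times as much with VitC. With a mean -log10 q of at least 1.3, which corresponds to the FDR of 0.05 named in the methods, 34405 and 32955 peaks remained, over 59.7 and 43.6 Mb. Peaks weaker than this FDR made up 23.4% of the VitC- list and 2.24% of the VitC+ list. At a threshold of 2 the lists held 14058 and 20367 peaks and covered nearly the same length, 34.9 and 35.2 Mb. From there on the VitC+ list was the larger one, with 4818 against 8967 peaks (14.0 against 20.9 Mb) at 3, 1840 against 3253 peaks (3.15 against 7.80 Mb) at 5 and 952 against 1381 peaks (0.571 against 1.497 Mb) at 10. At 20 there were 501 and 660 peaks over 0.325 and 0.387 Mb. The VitC- list was thus longer in weak peaks and the VitC+ list longer in strong ones.

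**Figure D1:**
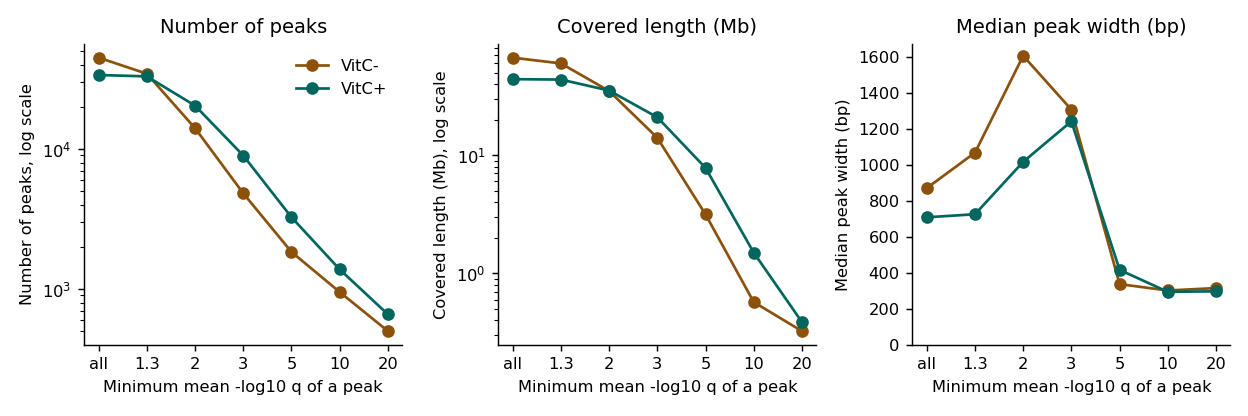
Number of H3K9me3 peaks, length they cover in Mb (both on log scales) and median peak width in bp against the minimum mean -log10 q of a peak, with 1 point per list and threshold for VitC- (brown) and VitC+ (green). The curves for number and length cross between no threshold and 2, from 44832 against 33708 peaks to 14058 against 20367.

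The order of the median widths was less dependent on the threshold, and it turned at 5 only. As deposited, the median width of VitC- peaks was 870 bp and that of VitC+ peaks 708 bp. The medians were 1605 and 1016 bp at a -log10 q of at least 2, 337 and 416 bp at 5 and 302 and 294 bp at 10. When the same number of strongest peaks, 33708, was taken from each list, the medians were 1083 and 708 bp and the covered lengths 59.1 and 44.0 Mb. Between a -log10 q of 3 and 5, the VitC- peaks were widest, with a median of 2538 bp against 1617 bp in VitC+. Peaks between 5 and 10 had medians of 580 bp in VitC- and 1282 bp in VitC+. Above 20 the medians were 315 and 296 bp, and 80.2% and 79.8% of these peaks were under 500 bp.

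**Figure D2:**
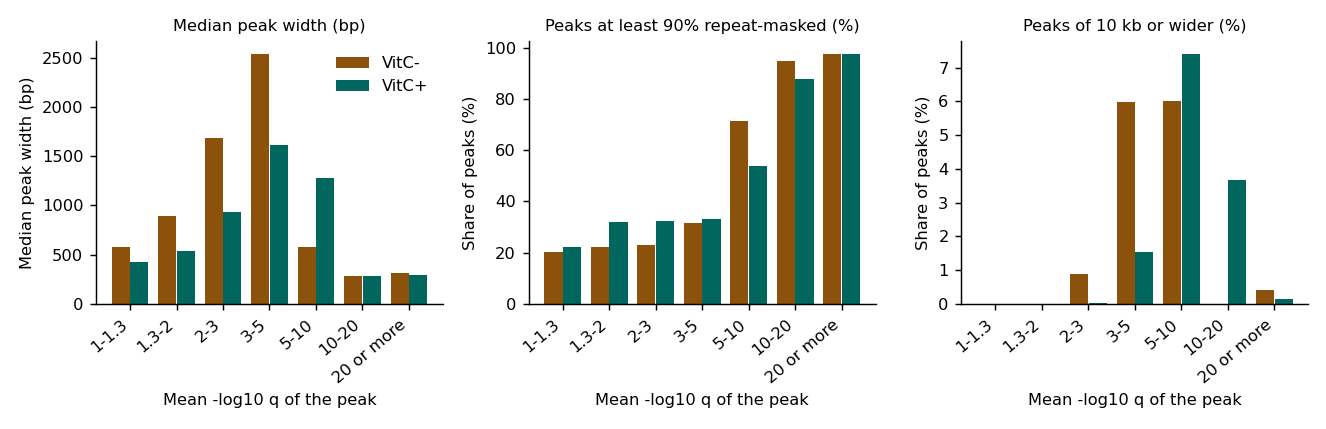
Median peak width in bp, share of peaks with at least 90% repeat-masked bases and share of peaks of 10 kb or wider, by the mean -log10 q of the peak, for VitC- (brown) and VitC+ (green) bars. Above a -log10 q of 20, 97.6% of peaks in each list are at least 90% repeat-masked, whereas wide peaks lie mostly between 3 and 10.

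The peaks were therefore of different kinds, among them narrow peaks of high q value in repeats and wide domains of lower q value over genes. Peaks of 10 kb or wider had a median -log10 q of 3.76 in VitC- and 5.73 in VitC+. Peaks under 1 kb with a -log10 q of at least 10 numbered 820 in VitC- and 1161 in VitC+ cells, with median widths of 286 and 268 bp. Repeat-masked bases made up 98.8% and 98.1% of their length, against 53.1% and 59.0% for all peaks and 36.4% of the genome. More than 3 kb outside every gene lay 71.1% and 73.1% of their length. Of these peaks, 94.9% of the VitC- and 79.2% of the VitC+ ones overlapped a peak of any strength in the other list. Peaks of H3K27me3, the mark of Polycomb repression, overlapped 22.0% and 19.3% of them in the VitC- list of that mark and 44.0% and 39.7% in its VitC+ list. Over all H3K9me3 peaks these shares were 29.5% and 22.0% for the VitC- list and 23.0% and 18.2% for the VitC+ list of H3K27me3.

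The implied background of a peak was computed as the number of fragments at which its deposited fold enrichment would give its deposited p-value. It is not a measured count. Its median was 27.6 in VitC- and 18.2 in VitC+ for narrow strong peaks and 4.78 and 3.36 for all peaks. It is computed from fold and p-value, so its relation to the high q values of narrow strong peaks follows in part from the calculation. The same holds for the lower implied background of the whole VitC+ list beside its higher fold enrichment, with a median of 3.27 against 2.74. Neither relation was tested.

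The narrow strong peaks were largely copies of each other. Of the 820 VitC- peaks, 791 matched another one with at least 80% identity over at least 50% of the shorter peak, and so did 1130 of the 1161 VitC+ peaks. A single chain of such matches joined 598 VitC- peaks (72.9%) and 879 VitC+ peaks (75.7%), spread over 21 chromosomes in each list. Repeat copies 1 to 3 above belong to it. Copy 1 matched 38 other VitC- peaks on 17 chromosomes with a median identity of 95.4%, and it was 87.2% identical to the peak of copy 2 over 327 aligned bases and 90.3% to the peak of copy 3 over 175 bases. Its -log10 q was 242 in VitC- and 198 in VitC+, at folds of 3.40 and 4.17. The strength of copies 2 and 3 was of the same order, with -log10 q values of 120 and 101 for copy 2 and 112 and 81.1 for copy 3 in VitC- and VitC+.

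The next largest chain held 114 VitC- and 145 VitC+ peaks with higher folds, 4.91 and 5.80 at the median. Its places in the genome were covered more often. A peak of 976 bp from this chain (chr17:18997347-18998322) had 2715 places in the genome with at least 80% identity over 80% of its length, of which 47.2% lay in VitC- and 54.1% in VitC+ peaks. For a peak of 983 bp from the largest chain (chr4:74599777-74600759) there were 38664 such places, of which 5.13% and 4.17% lay in peaks. Most places that matched the latter peak thus had no peak, while about as many places that matched the former had a peak as had none, and other members of the chains were not searched for in this way. The repeats were not given family names because no repeat annotation was used.

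Single places stood out among the strongest peaks. The strongest VitC- peak, at chr2:98666621-98667171, had a -log10 q of 695 at a fold enrichment of only 1.40, and the VitC+ peak there had 590 at 1.43. Its sequence matched itself best when shifted by 234 bases, with 67.5% identity against a median of 30.5% over all shifts, so it is a tandem repeat. The strongest VitC+ peak, in 2700054A10Rik (chr17:13550674-13553172), was 2499 bp wide with a -log10 q of 703 and a fold of 5.94, against 290 and 3.69 in VitC- cells. In VitC-, the peak near Rit2 (chr18:30803168-30803489) followed with a -log10 q of 289, then copy 1 near Mllt3 and a peak in Cyp2j13 (chr4:96053405-96053763), which encodes a cytochrome P450, with 232. In VitC+, a peak in Smo (chr6:29747689-29749141), which encodes the signal transducer of Hedgehog signaling, had a -log10 q of 264 and a fold of 5.94 against 108 and 3.63 in VitC-.

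The highest fold enrichment of either list was 75.1, in the VitC+ peak at chr3:120716980-120717747 in an intron of 6530403H02Rik. The VitC- peak there had a fold of 4.42. H3K27me3 was 38.5-fold enriched at this place in VitC+ and 4.06-fold in VitC- cells, so the high value was shared by ChIP of a different mark. This peak, whose -log10 q was 479, belonged to the largest chain of matching narrow peaks. Peaks in a single list reached lower q values. The strongest VitC- one, at chr4:17779529-17779731, reached a -log10 q of 28.8, and the strongest VitC+ one, at chr9:35305251-35305526, reached 208 at a fold of 1.42.

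Wide domains differed from the narrow peaks in place and content. Peaks of 10 kb or wider numbered 316 in VitC- (5.31 Mb) and 256 in VitC+ cells (4.76 Mb), and those on the assembled chromosomes, 315 and 255, all overlapped a peak of the other list. Exons made up 11.3% and 14.6% of their length, against 3.23% of the genome and 3.33% and 4.09% of all peaks. Repeat-masked bases made up 48.4% and 45.4%. Of 21774 coding genes, 205 in VitC- and 203 in VitC+ (0.941% and 0.932%) had such a wide peak in the gene body or the 3 kb upstream. Zinc finger genes were 71 and 89 of these, or 16.7% and 20.9% of the 426 zinc finger genes, and clustered protocadherin genes were 22 in each list, or 38.6% of 57.

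The TGEKP linker showed the same in the sequence. Its codons occurred 7282 times in the genome on either strand, or 2.75 times per Mb. VitC- peaks held 3464 (47.6%) and VitC+ peaks 3660 (50.3%) of them, at 51.9 and 83.7 per Mb. In peaks of 10 kb or wider the density was 262 and 346 per Mb, and 40.6% and 58.8% of these peaks held a linker. None of the narrow strong peaks of either list did. As deposited, 0.970% of VitC- and 1.35% of VitC+ peaks held a linker.

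Peaks within 5 kb of each other were joined to see whole domains, 30217 in VitC- and 23385 in VitC+ cells. Domains of 50 kb or wider were similar in number, 32 and 34, and those of 100 kb or wider numbered 6 and 8. The widest VitC- domains lay over Zfp960 (chr17:16953224-17115767, 162544 bp), over Zfp97 (chr17:17122705-17275615, 152911 bp), over Zfp433 (chr10:81650905-81784648, 133744 bp), over Zfp873 (chr10:82039756-82166812, 127057 bp) and over Zfp781 (chr10:81847247-81971134, 123888 bp). VitC+ peaks covered between 76.3% and 88.4% of each of these 5. The widest VitC+ domain lay over Zfp781 as well (chr10:81789390-81929482, 140093 bp), and those over Zfp873 (124787 bp) and Zfp433 (122917 bp) were among the 5 widest. Against these, 2 of the 5 widest VitC+ domains were covered by VitC- peaks over 34.0% and 29.6% of their length only. They lay at chr13:65950303-66084606 (134304 bp) over genes without a zinc finger symbol, Gm32476 among them, and at chr4:146440738-146554737 (114000 bp) over Zfp992, Zfp981 and Zfp993.

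Shared peaks made up 48.4% of VitC- and 68.6% of VitC+ peaks on the assembled chromosomes, counting any overlap. The 23079 peaks found only in VitC- were narrow and weak, with a median width of 619 bp and a median -log10 q of 1.41, and covered 17.9 Mb. The 10536 peaks found only in VitC+ had a median width of 416 bp and a -log10 q of 1.85, and covered 5.76 Mb. Only 152 of the former and 544 of the latter had a -log10 q of at least 5. Of the length of VitC- only peaks, 29.0% lay under H3K27me3 peaks of VitC- cells, against 15.9% for VitC- peaks that overlapped the other list. VitC+ only peaks had 13.1% under H3K27me3 peaks of VitC+ cells, against 8.09% for VitC+ peaks that overlapped the other list. Weak peaks of both lists overlapped H3K27me3 of VitC- cells more often. Between a -log10 q of 1 and 1.3, 34.6% of VitC- and 38.1% of VitC+ peaks did, against 15.9% and 15.0% between 5 and 10.

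To compare like with like, 20764 pairs of overlapping peaks were formed. Fold enrichment was higher in VitC+ in 89.2% of pairs, with medians of 2.89 in VitC- and 3.35 in VitC+ and a median log2 ratio of 0.22. At the same time the VitC+ peak was the narrower one in 68.3% of pairs, with median widths of 1602 and 1049 bp. Some gene classes went the other way in width, zinc finger genes among them. Over the 318 pairs in zinc finger genes the medians were 3231 bp in VitC- and 4165 bp in VitC+. The VitC+ peak was narrower in 42.8% of these, and the median log2 ratio of the folds was 0.33. In clustered protocadherin genes it was narrower in 26.7% of 15 pairs. Adipocyte (40% of 5 pairs), demethylase (40% of 5) and olfactory receptor genes (44.4% of 9) had few pairs. Pairs with a peak of 10 kb or wider in either list had a log2 fold ratio of 0.32 and were narrower in VitC+ in 57.4% of 373 cases.

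As deposited, most of the length covered by H3K9me3 lay outside genes and their 3 kb flanks. More than 3 kb outside every coding or lncRNA gene were 55.6% of the VitC- and 57.2% of the VitC+ length, against 49.7% of the genome. Introns held 31.5% and 28.8%, against 38.0% of the genome, and promoters, within 3 kb of a start, held 6.31% and 6.44%, against 6.92%. CG dinucleotides numbered 11.2 per kb in VitC- and 13.4 per kb in VitC+ peaks and 8.26 per kb in the genome. With a -log10 q of at least 5, the distal share was 47.0% and 45.8%, and the exon share 7.55% and 9.24%. At 10 the distal share was 71.6% in VitC- and 48.7% in VitC+, and the VitC+ list then held 28 peaks of 10 kb or wider and the VitC- list 3.

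Chromosomes differed widely in coverage. Chromosome 17 was covered most, over 5.08% in VitC- and 3.52% in VitC+ cells, followed by chromosome 10 with 4.63% and 3.09%. The X chromosome had 0.268% and 0.284%. VitC+ length was below VitC- length on each autosome, from 0.558 times on chromosome 11 to 0.849 times on chromosome 13, whereas the ratios for X and Y were 1.06 and 1.35.

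Around gene starts the mark was depleted. Over all 21774 coding genes, 1.29% of bases in the first kb downstream of the start lay in VitC- peaks and 1.31% in VitC+ peaks, and the lists were close there. In the kb that begins 10 kb upstream, the values were 3.81% and 2.42%. Zinc finger genes had little of the mark at their start, 1.44% and 2.23%, but 21.4% in VitC- and 25.8% in VitC+ in the kb that begins 14 kb downstream. Bone60 genes, a list of bone genes described further on, had 11.7% in VitC- and 3.62% in VitC+ in the kb that begins 10 kb upstream. This bin was chosen because its VitC- value was the highest. In the first kb downstream of their start the values were 0% and 1.71%, and in the kb after it 1.98% and 3.66%. In the kb directly upstream they were 1.71% and 0%. With 59 genes, single peaks move these values.

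**Figure D3:**
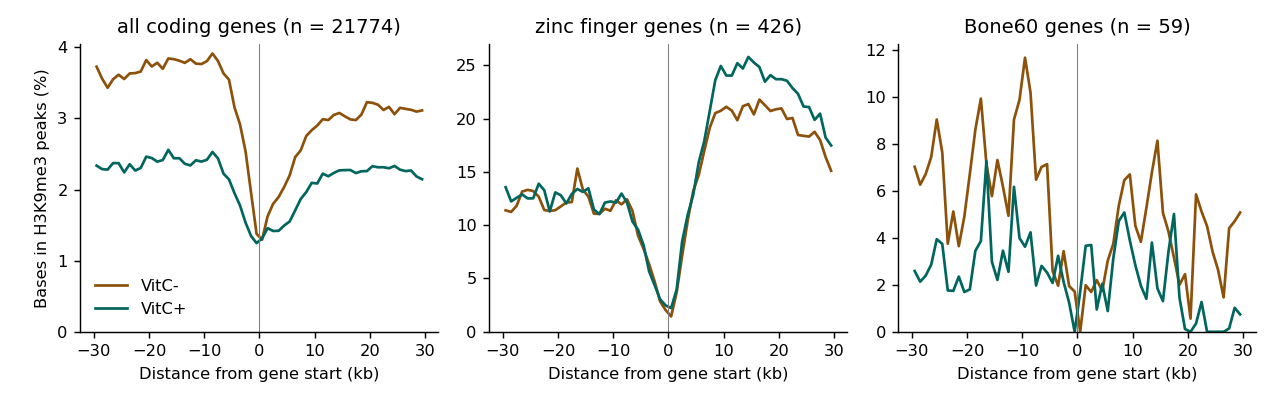
Percent of bases in H3K9me3 peaks in bins of 1 kb up to 30 kb on each side of the gene start (gene direction to the right) for all coding genes, zinc finger genes and Bone60 genes, with VitC- in brown and VitC+ in green. The lines of all coding genes and of zinc finger genes dip at the start, and in zinc finger genes the VitC+ line reaches 25.8% against 21.4% in the kb that begins 14 kb downstream. In Bone60 genes the VitC- line is the higher one over most bins. Its highest bin, the kb that begins 10 kb upstream, has 11.7% against 3.62%. The VitC+ line is higher in the first kb downstream of the start (1.71% against 0%) and lower in the kb directly upstream (0% against 1.71%).

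A coding gene was counted as covered when a peak lay in its body or 3 kb upstream. This held for 5692 genes in VitC- (26.1%) and 4468 in VitC+ (20.5%), with 3951 genes in both lists, 1741 in VitC- only and 517 in VitC+ only. At a -log10 q of at least 2 the shares were 12.9% and 15.6%, at 5 they were 1.89% and 3.76%, and at 10 they were 0.882% and 1.34%. Long genes have more room for a peak, so the part of the windows covered is also given for zinc finger, neuronal, demethylase and Bone60 genes. Over all coding genes this part was 2.06% in VitC- and 1.40% in VitC+. To compare lengths, 1000 bp were added to the covered length of each list. Over the 6209 genes with any peak the median log2 ratio of VitC+ to VitC- was -0.45. Of all 21774 coding genes, 1382 (6.35%) were lower by 2-fold or more in VitC+ and 197 (0.905%) were higher.

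Zinc finger genes, a class of transcriptional repressors for the most part, were covered in 240 of 426 cases in VitC- and 236 in VitC+ (56.3% and 55.4%), over 12.5% and 14.6% of their windows. At a -log10 q of at least 5 these were 35 and 110 genes (8.22% and 25.8%). Only 9 were lower by 2-fold or more in VitC+ and 27 were higher, and the median log2 ratio of the 253 with a peak was 0.04. Zfp978 on chromosome 4 had 46658 bp in VitC- and 109683 bp in VitC+ peaks, and its neighbour Zfp993 had 35128 and 88646 bp. Zfp808 on chromosome 13 was covered over 85.36% and 86.95% of its window, nearly the same in both lists.

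**Figure D4:**
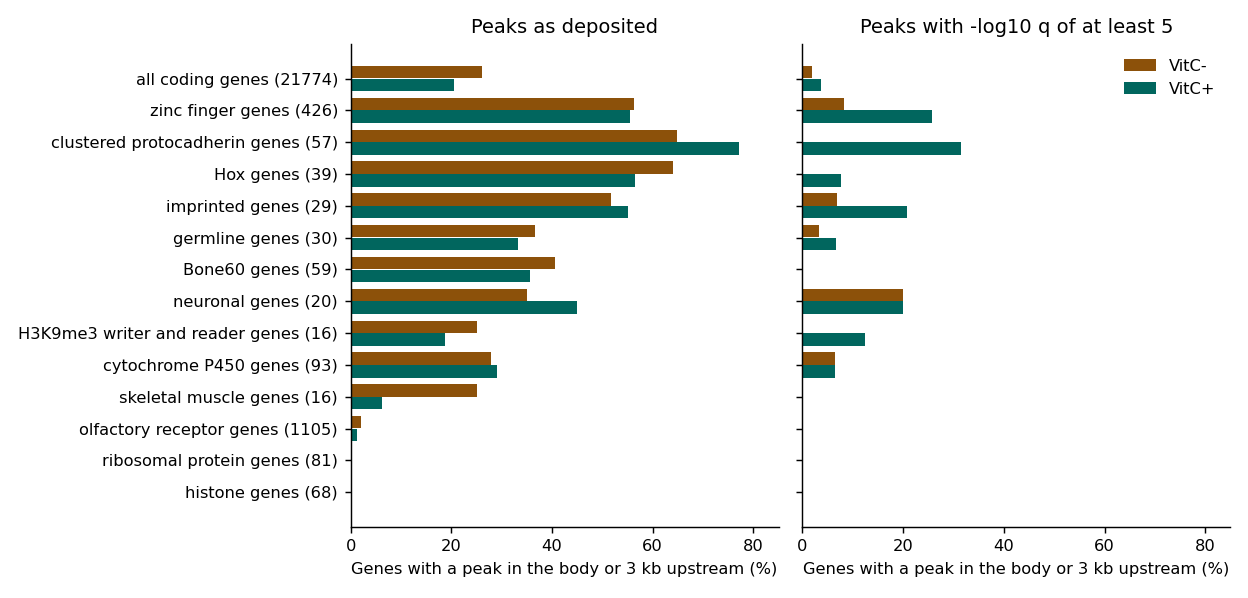
Percent of genes with an H3K9me3 peak in the gene body or 3 kb upstream, by gene class (number of genes in parentheses), for all deposited peaks and for peaks with a -log10 q of at least 5, with VitC- in brown and VitC+ in green. Zinc finger genes stand at 56.3% and 55.4% in the first panel and at 8.22% and 25.8% in the second, against 1.89% and 3.76% of all coding genes there.

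Clusters of zinc finger genes, runs of at least 5 members with gaps under 300 kb, differed from each other. The cluster from Zfp987 to Zfp933 (chr4:146094312-147852126, 15 members) had 200 kb in VitC- and 480 kb in VitC+ peaks, 2.40 times as much. Of its 174 TGEKP linkers, 156 lay in VitC- and 163 in VitC+ peaks, so most of them were covered in each list. The cluster from Zfp712 to Zfp273 (chr13:67038594-67827000, 25 members) had 141 and 217 kb, and the one from Zfp677 to Zfp946 (chr17:21380707-22456689, 18 members) 350 and 390 kb. At the other end, the cluster from Zfp553 to Zfp646 (chr7:127230061-127885996, 10 members) had 16.2 and 4.12 kb and the one from Zfp786 to Zfp746 (chr6:47815536-48089986, 7 members) 10.3 and 3.81 kb. Other large clusters were close between the lists, such as Zfp84 to Zfp146 on chromosome 7 with 116 and 122 kb. Near-identical copies in such clusters share reads, so the placement of the signal among neighbours is uncertain.

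**Figure D5:**
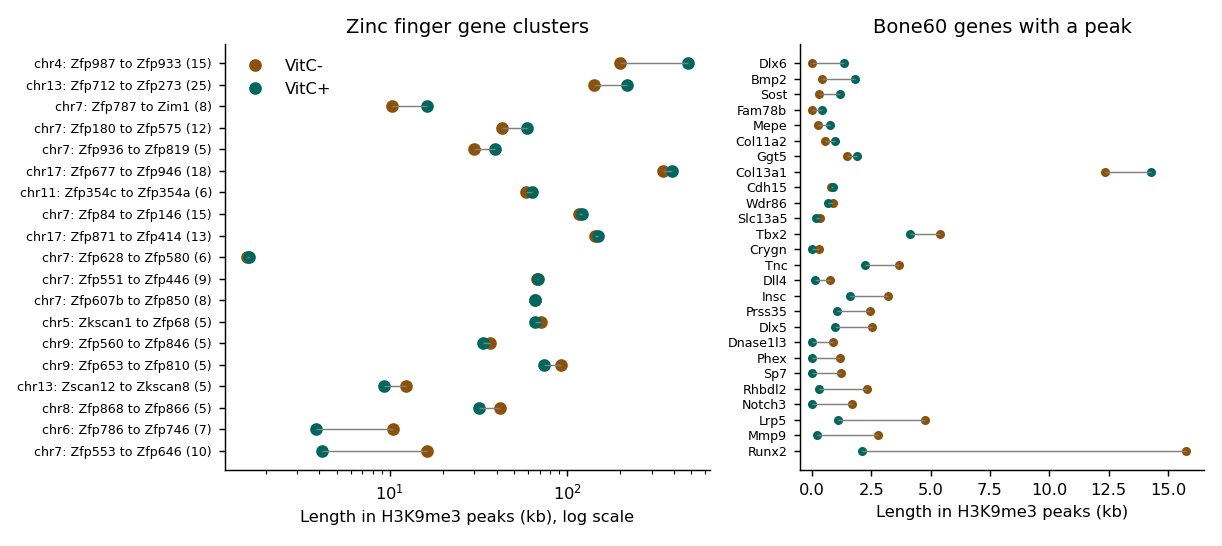
Length in H3K9me3 peaks (kb) in VitC- (brown) and VitC+ (green), joined by a line, for 19 zinc finger gene clusters on a log scale (left, number of members in parentheses) and for the Bone60 genes with a peak in either list on a linear scale (right). The chromosome 4 cluster reaches 480 kb in VitC+ against 200 kb, and Runx2 has 15.7 kb in VitC- against 2.13 kb.

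Clustered protocadherins, cell adhesion proteins of which single neurons express few, were covered in 37 of 57 cases in VitC- and 44 in VitC+, against 26.1% and 20.5% of all coding genes. At a -log10 q of at least 5 there were 0 in VitC- and 18 in VitC+, against 1.89% and 3.76%. Pcdhga1 had 105715 bp in VitC- and 107083 bp in VitC+, and its strongest peak had a -log10 q of 4.196 and 7.748 and a fold of 3.76 and 5.21. The windows of these genes overlap, so they share peaks and are not independent.

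Hox genes, the patterning factors of the body axis, were covered in 25 and 22 of 39 cases, against 26.1% and 20.5% of all coding genes. Hoxa3 had 16333 bp in VitC- and 11339 bp in VitC+, Hoxa10 had 6876 and 5529 bp, and Hoxb5 had 5306 and 2645 bp. The class is known as a target of H3K27me3. Of its H3K9me3 length, 30.7% in VitC- and 14.1% in VitC+ lay under H3K27me3 peaks of the same group. Over all coding genes these shares were 20.5% and 9.68%. The median log2 ratio of the 27 Hox genes with a peak was -0.29.

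Imprinted genes, expressed from a single parental allele, were covered in 15 and 16 of 29 cases, against 26.1% and 20.5% of all coding genes, and at a -log10 q of at least 5 in 2 and 6, against 1.89% and 3.76%. Mest had 7893 bp in VitC- and 7542 bp in VitC+ with a -log10 q of 8.30 and 11.0, Grb10 had 16253 and 16480 bp with 3.19 and 5.94, and Gnas had 3387 and 7747 bp. Of the 18 with a peak, 3 were lower and 4 higher by 2-fold or more in VitC+, against 1382 and 197 of the 6209 coding genes with a peak. As shares of all 29 these were 10.3% and 13.8%, against 6.35% and 0.905% of all coding genes. Peg3, where a peak of 2729 bp existed in VitC+ only, and Igf2r, with 4789 bp in VitC- and 728 bp in VitC+, were chosen after their values were seen. Within the 29 imprinted genes, 4.26% of the H3K9me3 length in VitC- and 21.2% in VitC+ lay under 5hmC peaks of the same group. Over all coding genes these shares were 5.64% and 4.47%.

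Germline genes, silenced in somatic cells, were covered in 11 and 10 of 30 cases, against 26.1% and 20.5% of all coding genes. Tdrd9, an RNA helicase of the piRNA pathway, had 10469 and 9798 bp, Mov10l1, of the same pathway, had 9587 and 8224 bp, and Tdrd1 had 4903 and 3904 bp. Of the germline genes, 4 were lower by 2-fold or more and 0 higher, against 6.35% and 0.905%. Olfactory receptor genes, 1105 in all, were nearly free of the mark, with 23 in VitC- and 15 in VitC+ peaks (2.08% and 1.36%), and vomeronasal receptors had 11 in VitC- and 16 in VitC+ of 350. None of the 68 histone genes and 81 ribosomal protein genes had a peak in either list. Neuronal genes were covered in 7 and 9 of 20 cases, against 26.1% and 20.5%, but over only 0.353% and 0.294% of their windows. Over all coding genes the part of the windows covered was 2.06% and 1.40%. At a -log10 q of at least 5 there were 4 neuronal genes in each list (20%), against 1.89% and 3.76% of all coding genes. By length the order was the reverse at this threshold. Peaks covered 0.032% and 0.030% of the neuronal windows, against 0.116% and 0.402% over all coding genes.

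The genes with the lowest ratios had wide but weak coverage in VitC- and little or none in VitC+. Rin2, a regulator of Rab5, had 11593 bp in VitC- and 0 in VitC+ (log2 ratio -3.65 with 1000 bp added), and Scn4a, the sodium channel of skeletal muscle, had 10356 bp and 0. Kank1 had 12104 and 211 bp, Ldlrad4, an inhibitor of TGF-β signaling, 12989 and 469 bp, and Etv6, a transcriptional repressor, 9408 and 229 bp. Galnt9, Olfm2, Ssbp2, Lipc and Hnf4a had between 7654 and 8424 bp in VitC- and 0 in VitC+. The highest -log10 q of any VitC- peak in these 10 genes was 2.93, in Ssbp2, and none of them had a peak at a -log10 q of at least 5 in either list.

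The genes with the highest ratios had shorter coverage. Gli2, the activating transcription factor of Hedgehog signaling, had 220 bp in VitC- and 5097 bp in VitC+ (log2 ratio 2.32). Zfp979 had 1216 and 8424 bp, and Fancl, a ubiquitin ligase of DNA repair, had 267 and 4308 bp. Tmem132d, Zfp503, Zfp229, Sall1, Tle4, Slc2a13 and Robo2 had no VitC- peak and between 2913 and 3296 bp in VitC+. Zfp503 was covered over 37.9% of its window and Sall1, a developmental zinc finger factor, over 15.4%. The highest -log10 q of any VitC+ peak in these 10 genes was 4.25, in Fancl, whose VitC- peak had 10.0. None of them had a VitC+ peak at a -log10 q of at least 5.

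Bone60 genes are bone-selective genes that the study defined from public expression data of many tissues. The study then related this list to VitC in its own samples, so the list is described here with those results known. Of the 59 found, 24 had a peak in VitC- and 21 in VitC+ (40.7% and 35.6%, against 26.1% and 20.5% of all coding genes), and none had a peak at a -log10 q of at least 5. Peaks covered 2.21% of their windows in VitC- and 1.28% in VitC+, against 2.06% and 1.40% over all coding genes. Past 2-fold, 7 were lower (11.9%) and 1 was higher (1.69%) in VitC+, against 6.35% and 0.905% of all coding genes. The median log2 ratio of the 26 with a peak was -0.45, as it was over all coding genes with a peak. Runx2 was lowest, with 15736 bp in 9 VitC- peaks and 2131 bp in 4 VitC+ peaks (log2 ratio -2.42). Of the 9 VitC- peaks, 6 had no VitC+ peak at all, including the one printed above (chr17:44504753-44506249), with a -log10 q of 2.28 and a fold of 2.87. At that printed stretch the 5hmC lists had folds of 6.82 in VitC- and 8.73 in VitC+. The strongest Runx2 peak (chr17:44510110-44514078) had a -log10 q of 4.48 in VitC- and 2.55 in VitC+.

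The other Bone60 genes past 2-fold had shorter lengths. Lrp5, a Wnt co-receptor, had 4757 bp in VitC- and 1094 bp in VitC+, Mmp9, a matrix protease, 2768 and 201 bp, and Rhbdl2, a membrane protease, 2307 and 292 bp. Sp7, the osteoblast transcription factor osterix, had 1233 bp, Notch3, a Notch receptor, 1689 bp and Phex, which governs phosphate balance, 1193 bp, each in VitC- only. Dlx6, a homeobox factor, had 0 and 1369 bp. Col13a1 had 12345 bp in VitC- and 14284 bp in VitC+, and Tbx2 had 5386 and 4145 bp. Phospho1 and Dmp1, which the study names for this mark, had no peak in the gene body or 3 kb upstream in either list. Within 30 kb of the start, Phospho1 had 8280 bp in VitC- and 475 bp in VitC+, and Dmp1 had 11878 and 4473 bp.

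Collagens and their modifying enzymes, among them hydroxylases for which VitC is a cofactor, were covered in 4 of 22 cases in each list. For this and the following lists, the shares of all coding genes to read against are 26.1% in VitC- and 20.5% in VitC+. Col5a2, a fibrillar collagen, had 7494 bp in VitC- and 653 bp in VitC+, P3h2, a prolyl hydroxylase, 5115 and 1867 bp, and Loxl4 1163 and 587 bp. Of the mineralized matrix genes, 6 and 5 of 16 were covered, and Bglap3, a relative of osteocalcin, had 3688 and 1843 bp with a -log10 q of 4.08 and 5.42. Genes of H3K9me3 writers and readers were covered in 4 and 3 of 16 cases. Atf7ip, the partner of SETDB1, had 20412 bp in VitC- and 10011 bp in VitC+, Tasor, a core subunit of the HUSH complex, 7766 and 3822 bp, and Morc2a, its effector, 3837 and 2180 bp, with higher -log10 q in VitC+ for each. Of the H3K9 and H3K27 demethylase genes, 7 and 6 of 12 were covered, but over only 0.838% and 0.450% of their windows. Over all coding genes the part of the windows covered was 2.06% and 1.40%. Jmjd1c had 4095 and 832 bp, whereas Kdm4d had 1828 and 1965 bp. Adipocyte genes were covered in 3 of 22 cases in each list, with Cidec at 2993 and 314 bp, and skeletal muscle genes in 4 and 1 of 16.

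Other marks mapped in MC3T3-E1 cells overlapped H3K9me3 to different degrees. The 5hmC samples are titled as day 28. They may thus be of another culture time than the H3K9me3 lists, for which the day is in conflict. H3K27me3 peaks covered 8.81% of the genome in VitC- and 5.46% in VitC+ and lay over 19.4% and 8.74% of the H3K9me3 length of the same group. For H3K9me3 peaks with a -log10 q of at least 5 the shares were 4.79% and 4.15%. The 5hmC lists covered 5.61% and 7.45% of the genome and 5.85% and 3.41% of the H3K9me3 length of the same group. Of the peaks of 10 kb or wider, 79.7% in VitC- and 32.9% in VitC+ overlapped a 5hmC peak of the same group by 1 bp or more, which a wide peak does more easily than a narrow one. With the 5hmC list of the other group the shares were 41.9% for VitC- and 79.6% for VitC+ wide peaks. The share thus differed mainly with the 5hmC list used, and less with the H3K9me3 list.

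Femoral bone of Gulo knockout mice, which cannot make VitC, gave expression values from another source than these cells. The mice were 20 weeks old and had received VitC throughout (VitC+) or had been deprived of it in their last weeks (VitC+/-), with 3 libraries per group. Shares are over genes with an RPKM value, 18208 of the 21774 coding genes, and 55.9 to 58.9% of these had an RPKM of at least 1 across the 6 libraries. Genes with 20% or more of the window covered, 650 in VitC- (2.99%) and 527 in VitC+ (2.42%), had a value in 467 and 348 cases and reached this level in 33.62 to 40.04% and 31.61 to 40.80% of these. Zinc finger genes were higher. Those with 20% or more covered in VitC+, 117 with a value of 144, reached it in 47.0 to 65.0%. All zinc finger genes, 373 with a value of 426, reached it in 58.2 to 70.2%. Genes with no peak in either list, 12953 with a value of 15565, were at 57.8 to 59.9%. The genes higher by 2-fold or more in VitC+, 150 with a value of 197, were at 28.0 to 36.0%, and those lower by 2-fold or more, 1219 of 1382, at 56.6 to 61.7%.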

How the data were processed

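ChIP-seq of H3K9me3 in MC3T3-E1 cells was taken from the deposited broad peak lists, 1 per group. Per the labels, the authors used FastQC 0.72, Trim Galore 0.4.3.1, BWA 0.7.15.1 and MACS2 2.1.1.20160309.6 with mm10. Column values are MACS2's own: the deposited fold enrichment of a peak is its ratio to local background, and the deposited -log10 p and -log10 q are, like it, means over the peak. The same units were used for the H3K27me3 and 5hmC lists, and the deposited RPKM values of the authors were used for femurs.

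Peaks were compared by overlap of at least 1 bp in covered lengths on RefSeq mm10 gene models, with no test. Paired peaks, domains, gene windows and classes were computed with Python 3.11.15, numpy 2.4.6, pandas 2.3.3 and pysam 0.24.0, sequence matches with BLAST 2.17.0. Interval steps were tested on simulated data, with 50 of 50 cases right. Named genes are those of the 5 strongest peaks and 5 widest domains per list, the 10 lowest and highest ratios, up to 3 longest covered genes per class, Phospho1, Dmp1 and Bone60 genes past 2-fold. Members and lists were chosen with earlier results of these data known. The cells' own expression, the 5hmC lists of femurs and the expression of WT and Tet femurs were not used here.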

Additional observations from a re-analysis of the deposited data

How the results depend on the processing

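Of 85 alternative values, 27 stayed the same, 47 moved and 11 changed sign. A ratio or a count stayed the same when within a factor of 1.5 of the main value. A share stayed the same when inside an exact binomial interval over peaks or genes. That interval treats peaks or genes as independent and is no replicate error, so these counts mix unlike rules. No paired analysis was possible because each group has 1 peak list. With a -log10 q of at least 2, 3, 5 and 10, the log2 ratio of VitC+ to VitC- turned positive for the peak number, at 0.53, 0.90, 0.82 and 0.54, and for the covered length, at 0.013, 0.58, 1.31 and 1.39. With a fold enrichment of at least 4 these ratios were 2.19 and 2.46. The log2 ratio of median widths turned to 0.30 at 5 only. At 1.3, 2, 3, 5 and 10, VitC- peaks overlapped VitC+ peaks in 56.6, 66.8, 75.2, 83.0 and 85.4%, and VitC+ peaks overlapped VitC- peaks in 63.4, 49.2, 41.4, 47.1 and 58.8%. With equal numbers of peaks the overlaps were 57.9 and 62.4%, and with an overlap of 50% of the peak 30.5 and 56.6%. The distal share at 3, 5 and 10 was 52.5, 47.0 and 71.6% in VitC- and 54.5, 45.8 and 48.7% in VitC+, and beyond 10 kb it was 41.2 and 43.0%. Genes lower by 2-fold or more in VitC+ numbered 484, 162, 11 and 4 at 2, 3, 5 and 10, 2765 within 30 kb of the start, and 2922 or 146 with 200 or 5000 bp added. Genes higher by 2-fold or more numbered 304, 636, 637, 337 and 52 at 1.3, 2, 3, 5 and 10, 323 with equal numbers of peaks, 307 within 30 kb of the start, and 644 or 6 with 200 or 5000 bp added. Zinc finger genes with a peak were 43.9, 27.9, 8.22 and 0.704% in VitC- at 2, 3, 5 and 10, and 45.5, 25.8 and 4.46% in VitC+ at 3, 5 and 10, and within 3 kb of the start 16.9 and 18.8%. The threshold sets how many peaks enter, and which list leads follows from it. Beyond this the cause was not tested. Depth is unknown, and 1 list per group leaves no replicate error.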
